A study of Mus musculus with 59 samples.

Results

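The genes of the cytosolic ribosomal proteins were followed through 4 ways of giving cocaine to mice. Members were the symbols beginning with Rpl or Rps that name a ribosomal protein by number, together with the P-stalk genes and Rpsa, with a mean of at least 1 FPKM (fragments per kilobase of transcript, scaled to the fragments of the library) over the 59 libraries. The rule found 78 members among 24346 listed symbols, of which 13186 reached that level. Large subunit proteins made up 43 members, proteins of the stalk that stands out from the large subunit 3, and small subunit proteins 32. Of 81 symbols with such a name, Rpl3l (mean 0.431 FPKM) and Rpl39l (0.111 FPKM) fell short and Rpl10l was listed at 0, whereas the members nearest the limit were Rpl26 (15.0 FPKM), Rpl30 (18.6 FPKM) and Rpl34 (22.1 FPKM). A further 7 ribosomal genes whose names the rule did not take, among them Fau, Gnb2l1 and Rpl22l1, were kept as a list for comparison.

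RNA was sequenced from the ventral tegmental area, the midbrain region where dopamine neurons that project to the striatum and cortex lie, of male mice. Cocaine, which blocks the dopamine transporter, or saline was given by acute injection in the home cage (5 cocaine and 6 saline libraries), by chronic injection in the home cage (6 and 6), in conditioning (6 and 6), or by intravenous self-administration (15 and 9). The question of the design was how far the response to cocaine depends on the way it is given. Strain, age, dose, number of doses and time of collection are not given in the labels, which name no transgene or other manipulation. Nor do they say whether samples of a group came from separate animals, and the p-values below therefore rest on a spread that could be technical. Libraries are named by the number in their column, counted from 0.

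A ribosome joins a small subunit, which reads the messenger RNA, to a large subunit, which forms the peptide bond, and most of their proteins are present in equal number. Most ribosomal protein messages begin with a run of pyrimidines (a 5′ terminal oligopyrimidine, or TOP, sequence) through which the kinase mTORC1 sets how much of them is translated, so the amount of message is only one of the steps of control. In neurons, new protein synthesis is known to be needed for lasting changes of synapses after drugs of abuse.

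Their genes are also known for compact promoters that mostly lack a TATA box. Promoter windows from 80 bases before to 20 bases after the start could be taken from RefSeq (GRCm38.p6) for 57 member genes, in 68 windows. CGGAAG, the core letters bound by ETS factors, stood on either strand (CTTCCG on the other) in 26 windows, or 38.2%, against 9.27% of 32851 windows of all genes. The pyrimidine run CTTTCC stood on the sense strand in 14 windows (20.6%, against 4.67%), CCATCTT or its complement AAGATGG, the core letters bound by YY1, in 4 (5.88%, against 1.80%), and TATAAA on the sense strand in 1 (1.47%, against 3.70%). A match describes letters only. The 6 windows below belong to members on which the results turn: Rpl41 and Rpl37 had the smallest p-values within the acute and the chronic paradigm, Rplp2 and Rps10 were lower in self-administration, and Rps27 and Rps15a were higher there. Capitals mark these motifs. The windows are chr10:128549149-128549248 (minus strand) for Rpl41, chr15:5116533-5116632 (plus) for Rpl37, chr7:141447571-141447670 (plus) for Rplp2, chr17:27635225-27635324 (minus) for Rps10, chr3:90213629-90213728 (minus) for Rps27 and chr7:118116128-118116227 (minus) for Rps15a.
Rpl41: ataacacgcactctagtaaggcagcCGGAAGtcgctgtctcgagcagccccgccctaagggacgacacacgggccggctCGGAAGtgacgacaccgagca
Rpl37: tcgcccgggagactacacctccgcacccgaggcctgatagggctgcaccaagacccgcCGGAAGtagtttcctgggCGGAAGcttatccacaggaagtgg
Rplp2: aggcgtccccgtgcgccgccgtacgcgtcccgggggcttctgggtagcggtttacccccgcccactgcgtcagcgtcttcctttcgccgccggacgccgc
Rps10: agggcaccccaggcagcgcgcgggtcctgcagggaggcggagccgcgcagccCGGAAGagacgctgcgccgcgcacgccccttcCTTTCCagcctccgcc
Rps27: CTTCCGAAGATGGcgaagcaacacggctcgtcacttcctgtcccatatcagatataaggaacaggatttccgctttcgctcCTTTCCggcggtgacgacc
Rps15a: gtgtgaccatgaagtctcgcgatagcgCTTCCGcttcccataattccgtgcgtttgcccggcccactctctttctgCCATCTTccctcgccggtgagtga
Rplp2 held none of these motifs in its window, and in Rps27 the complement CTTCCG was followed directly by AAGATGG.

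Ribosomal protein messages were among the most abundant of the tissue. Median FPKM was 338 over the members, against 11.1 over all genes with at least 1 FPKM, and 71 members reached 100 FPKM and 14 reached 500. Members took 20 of the 100 highest places and 67 of the 500 highest. Rpl38, a protein of the large subunit, was highest with a mean of 1094 FPKM, followed by the stalk protein Rplp1 (935 FPKM) and by Rps29 (860 FPKM) and Rps21 (809 FPKM) of the small subunit. FPKM is scaled to length, which lets levels of different genes be compared roughly. Levels of members with near-identical copies, such as Rps27 and Rpl34 below, are uncertain where reads were shared out between copies. Rpl26 (15.0 FPKM) and Rpl30 (18.6 FPKM) were also far under the median, and whether their reads were shared with copies was not tested.

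Summed over members, ribosomal protein messages made up between 5.76% and 7.21% of a library's FPKM, with a mean of 6.51% ± 0.339 (SD, n = 59). Their level, the mean of log2(FPKM + 1) over members, was 8.16 ± 0.061 with acute cocaine (n = 5) and 8.10 ± 0.041 with saline (n = 6), and 8.14 ± 0.065 with chronic cocaine (n = 6) and 8.04 ± 0.078 with saline (n = 6). In conditioning the level was 8.08 ± 0.095 with cocaine and 8.14 ± 0.068 with saline (n = 6 each). In self-administration it was 8.07 ± 0.096 with cocaine (n = 15) and 8.09 ± 0.15 with saline (n = 9). Cocaine groups thus lay above saline in the home cage paradigms and below in conditioning and self-administration, and the libraries of the groups overlapped in all 4. Rps27, an uneven member described below, enters this level. With the median over members in place of the mean, the order was the same. Cocaine and saline groups then averaged 8.50 and 8.53 in conditioning and 8.38 and 8.39 in self-administration.

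**Figure D1:**
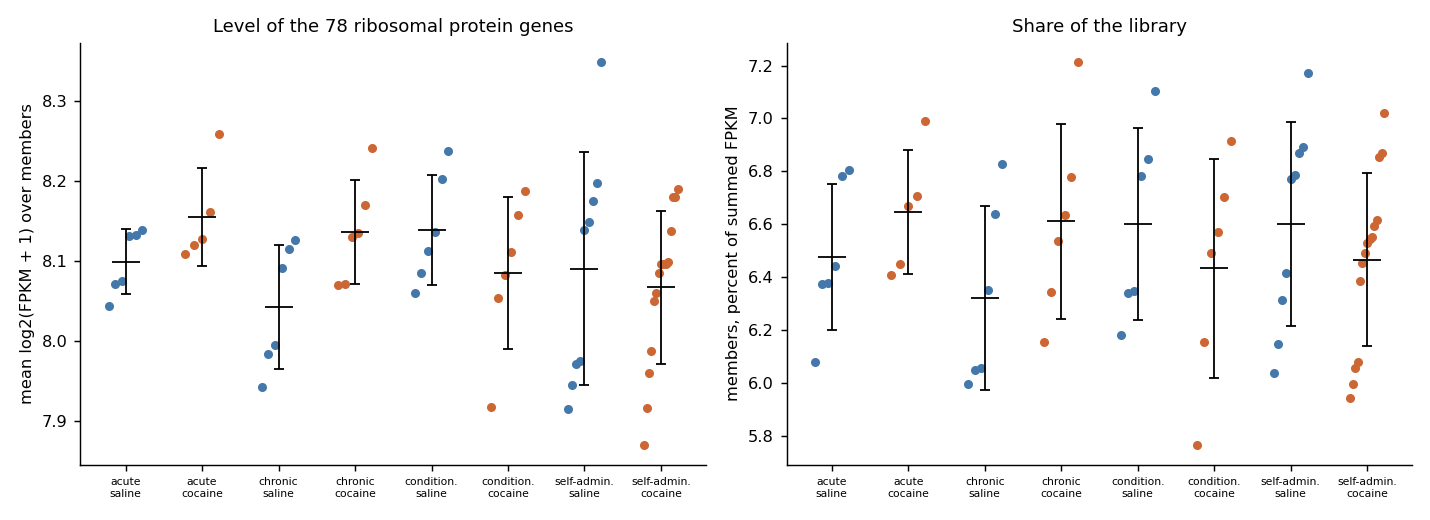
Level of the 78 members (left, mean log2(FPKM + 1)) and their share of a library's summed FPKM (right, percent) by group; neither axis starts at 0. Each point is 1 library, horizontal bars and whiskers give mean and SD, and the groups of every paradigm overlap.

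All libraries held the tissue's defining markers: Th, the rate-limiting enzyme of dopamine synthesis, ran from 124 to 691 FPKM and Slc6a3, the dopamine transporter, from 107 to 608 FPKM. Libraries of self-administration stood apart from the rest, with 58.8% of genes past the threshold against the other saline groups. No batch is given in the labels, so paradigm and batch cannot be told apart. Sums of FPKM ran from 398577 to 457508 a library, read depth is unknown, and no 2 libraries were identical. In bulk tissue, fewer cells of a type and less RNA per cell cannot be told apart.

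After acute cocaine, most ribosomal protein messages lay slightly above saline, and none passed the test. Members differed above 0 in 65 of 78 cases, against 49.4% of all 13164 genes tested, with a median difference of 0.062 on the log2(FPKM + 1) scale, against -0.001 over all genes. Because members varied together between libraries (described below), counts of members here and in later comparisons are descriptions, not separate observations. None had an adjusted p under 0.05 (limma, Benjamini-Hochberg over all genes, two-sided), as was the case for 0% of all genes. At an unadjusted p under 0.05, 6 were higher and 0 lower, where 2.17% of all genes were higher and 1.74% lower. Large subunit members were above 0 in 37 of 43 cases, small subunit members in 26 of 32 and stalk members in 2 of 3.

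Rpl41, the smallest protein of the ribosome, was listed in the 5 acute cocaine libraries at 806, 849, 873, 880 and 892 FPKM, and in saline it ran from 740 through a median of 773 to 795 FPKM. Every cocaine library was above every saline library, with a difference of 0.16 ± 0.04 (SE, limma adjusted p = 0.985). Rpl37, a zinc-finger protein of the large subunit, had 156, 159, 160, 162 and 165 FPKM with cocaine and from 138 through 146 to 154 FPKM with saline. Here too the groups did not overlap (difference 0.14 ± 0.04, limma adjusted p = 0.985). Rps9, which also did not overlap, had 463 to 492 FPKM with cocaine and 432 to 455 FPKM with saline. It was named after its values were seen. Groups did not overlap, with cocaine higher, in 3 members and in 0.190% of all genes, and no member was lower without overlap (0.122% of all genes). Rps3, which lines the channel where messenger RNA enters, differed by 0.09 ± 0.03, also with an adjusted p of 0.985 in limma. The members furthest below 0 by p were Rps21 (-0.08 ± 0.06), Rps4l (-0.14 ± 0.13) and Rpl31 (-0.03 ± 0.05).

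Without cocaine library 4, 53 members were above 0, the median was 0.032 and 11 were higher at an unadjusted p under 0.05. That library had the highest level of the acute groups, 8.26. Dopamine neuron markers were below saline in this paradigm, with 0 of 10 above 0, and their sum ran from 662 to 2085 FPKM with cocaine and from 1211 to 2270 FPKM with saline. Oligodendrocyte markers were above 0 in 6 of 6 cases, with sums of 6344 to 8304 FPKM with cocaine and 5518 to 7233 FPKM with saline. No marker of either list passed the test or was at 0 in every library, and their part in the ribosomal values was not tested.

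After chronic cocaine the same direction was seen in nearly all members. Differences were above 0 in 76 of 78 members (51.3% of 13190 genes), with a median of 0.095 against 0.002 over all genes. As before, members that vary together are not separate observations. None passed the adjusted threshold, which 0% of genes passed (limma). At an unadjusted p under 0.05, 21 members were higher and 0 lower, where 4.15% of all genes were higher and 3.23% lower. All 3 stalk members, 31 of 32 small subunit members and 42 of 43 large subunit members were above 0.

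Rpl41 ran from 811 through a median of 851 to 957 FPKM with chronic cocaine and from 722 through 738 to 803 FPKM with saline. The groups did not overlap (difference 0.21 ± 0.05, limma adjusted p = 0.429). Rpl37 ran from 151 through 159 to 179 FPKM with cocaine and from 123 through 136 to 154 FPKM with saline, overlapping in their ends (0.23 ± 0.06, limma adjusted p = 0.429). Rps26, of the small subunit near the exit of messenger RNA, ran from 394 through 418 to 454 FPKM with cocaine and from 341 through 356 to 413 FPKM with saline (0.19 ± 0.05, limma adjusted p = 0.466), so that 6 of 6 cocaine libraries were above the saline median. Groups did not overlap in 5 members, all higher with cocaine (0.341% of all genes), and in 0 that were lower (0.174%). Besides Rpl41 these were the large subunit proteins Rpl36 (0.15 ± 0.04), Rpl18 (0.14 ± 0.04) and Rpl7a (0.14 ± 0.04) and the stalk protein Rplp2 (0.13 ± 0.04), named after their values were seen. Only Rpl34 (-0.08 ± 0.08) and Rps27 (-0.57 ± 0.80) were below 0. Both were above 0 once their FPKM were summed with the FPKM of their copies Rpl34-ps1 and Rps27rt.

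Other lists were not all alike in the chronic paradigm, and none of their genes passed the test. The 7 ribosomal genes outside the naming rule were all above 0, among them Fau (0.18 ± 0.04), whose product ends in a small subunit protein. Mitochondrial ribosomal proteins, which serve the separate ribosome of that organelle, were above 0 in 72 of 77 cases with a median of 0.085, and 20 were higher at an unadjusted p under 0.05, such as Mrpl52 (0.24 ± 0.06) and Mrps12 (0.18 ± 0.06). Proteasome subunits, which degrade proteins, were above 0 in 34 of 37 cases with a median of 0.080. Elongation factors and other TOP messages were above 0 in 18 of 22 cases (median 0.051), and biogenesis factors, which assemble the subunits in the nucleolus, in 37 of 49 (median 0.031). Initiation factors were above 0 in 20 of 27 cases (median 0.026) and mTORC1 pathway genes in 20 of 33 (median 0.002). Factors of ribosome rescue and hibernation were above 0 in 7 of 18 cases (median -0.018). These lists were chosen with earlier results known, and whether they differ from the ribosomal members was not tested.

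Members are short messages, with a median transcript length of 704 bases against 2171 for the genes tested, and 45 of 78 were among the shortest 10% of genes. In those 10% the median difference was 0.037 in the chronic paradigm and 0.015 in the acute one. In the longest 10% it was -0.035 and -0.038. Astrocyte markers summed to 192 to 298 FPKM with chronic cocaine and to 239 to 352 FPKM with saline, and endothelial markers to 53.6 to 64.6 and 63.9 to 79.3 FPKM. At an unadjusted p under 0.05, 2 of 5 and 3 of 5 of them were lower, as was 1 of the 4 tested markers of the hypothalamus and mammillary body (sums over all 6 of 18.1 to 42.5 and 19.1 to 52.3 FPKM). None was at 0 in every library. The part of length and of these cells in the ribosomal values was not tested. Quantile normalization left 54 members above 0 in the chronic paradigm, with a median of 0.024 and 4 at an unadjusted p under 0.05. In the acute paradigm it left 52 above 0, a median of 0.025 and 2 at that p.

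In conditioning the members lay mostly below saline. Differences were above 0 in 24 of 78 (49.9% of 13135 genes), with a median of -0.037 against -0.00024 over all genes. The median was -0.057 for the 39 members with the higher GC content of their transcripts and -0.0048 for the 39 with the lower. Spearman's rho between GC content and difference was -0.43 over members and -0.11 over all genes. Over members it was -0.27 in the acute, 0.11 in the chronic and 0.35 in the self-administration paradigm. The part of GC content was not tested. No member and 0% of genes passed the adjusted threshold (limma), and at an unadjusted p under 0.05 there were 0 higher and 1 lower, where 3.93% and 4.28% of all genes were. The 1 was Rps27, at -1.96 ± 0.65 (limma adjusted p = 0.591), which is described with its copy below. Rpl13a differed by -0.10 ± 0.05 and Rpl12 by -0.10 ± 0.05 (limma adjusted p = 0.63 for both), while Rpl30 (0.20 ± 0.11), Rps27l (0.10 ± 0.09) and Rps4x (0.06 ± 0.06) led the members above 0. Among astrocyte markers, 3 of 5 were lower at an unadjusted p under 0.05, with sums of 232 to 275 FPKM with cocaine and 263 to 328 FPKM with saline, as were 3 of 5 microglia markers, with sums of 71.6 to 79.8 and 72.1 to 114 FPKM. Dopamine neuron markers were above 0 in 0 of 10 cases, with 1 lower at that p (762 to 2375 and 781 to 2473 FPKM). Oligodendrocyte markers were above 0 in 6 of 6 cases, with 1 higher at that p (7271 to 9295 and 6698 to 8917 FPKM). Markers of the neighbouring hypothalamus and mammillary body were above 0 in 0 of the 4 tested (sums over all 6 of 17.7 to 30.9 and 22.2 to 55.5 FPKM). None passed the adjusted threshold (limma), none was at 0 in every library, and their part in the ribosomal values was not tested. Without cocaine library 0, whose level of 7.92 was the lowest of its group, 34 members were above 0, and without cocaine library 2 there were 10.

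In self-administration, members were above 0 in 25 of 78 cases (49.4% of 13130 genes), with a median of -0.023 against -0.001 over all genes. No member and 0% of genes passed the adjusted threshold (limma). At an unadjusted p under 0.05 there were 0 higher and 1 lower, where 1.61% and 1.81% of all genes were. Rps15a, a small subunit protein, ran from 43.4 through 49.1 to 61.5 FPKM with cocaine and from 48.1 through 53.4 to 68.4 FPKM with saline. Of 15 cocaine libraries, 14 were below the saline median, while the ranges overlapped (-0.12 ± 0.06, limma adjusted p = 0.999). Rpl21 (-0.09 ± 0.05) and Rps12 (-0.07 ± 0.05) came next below 0, and Rpl34 (0.29 ± 0.16), Rpl26 (0.23 ± 0.21) and Rps9 (0.06 ± 0.07) led the members above 0. Of 6 markers of the hypothalamus and mammillary body, 1 was above 0 and 2 were lower at an unadjusted p under 0.05, with sums of 17.3 to 97.96 FPKM with cocaine and 29.9 to 230.3 FPKM with saline. Astrocyte markers were above 0 in 0 of 5 cases (median -0.20), with sums of 207 to 519 and 230.3 to 480.4 FPKM. None of these passed the adjusted threshold (limma) or was at 0 in every library, and their part in the ribosomal values was not tested. With library quality weights 59 members were above 0 in place of 25, and single libraries left out moved the count from 14 (without saline library 7) to 40 (without saline library 2).

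**Figure D2:**
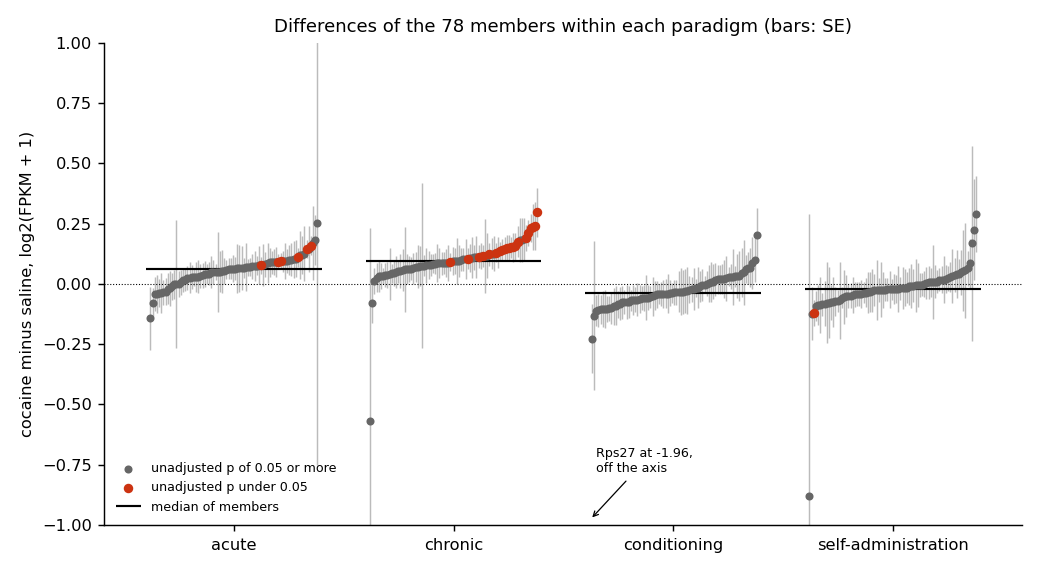
Cocaine minus saline in log2(FPKM + 1) for each of the 78 members, sorted within paradigm, with SE bars, the medians as black lines and members with an unadjusted p under 0.05 in red; bars that reach past -1 or 1 are cut and Rps27 at -1.96 in conditioning lies off the axis. Members above 0 number 65 in the acute, 76 in the chronic, 24 in the conditioning and 25 in the self-administration paradigm.

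Averaged over the 4 paradigms, with paradigm as an additive term, cocaine groups differed above 0 in 61 of 78 members (49.6% of all genes). The median was 0.019. No member passed the adjusted threshold, which 0.00758% of genes did (limma). Rpl7a (0.06 ± 0.02, limma adjusted p = 0.298) and Rps15a (-0.06 ± 0.03, limma adjusted p = 0.377) were the only members with an unadjusted p under 0.05 (6.47% of all genes higher and 6.34% lower). Without the chronic libraries 40 members were above 0, and with quantile normalization 33.

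Differences between the cocaine effects of the paradigms were tested directly. None of the 78 members passed the adjusted threshold in any of the 6 contrasts (limma, with 0% of genes past it in each), so the directions in separate paradigms are not shown to differ for any single gene. Conditioning minus chronic had a median of -0.137 over members and 3 above 0 (48.5% of all genes). Self-administration minus chronic had a median of -0.120 with 3 above 0 (49.4%). At an unadjusted p under 0.05, 11 and 8 members were lower there (1.44% and 1.21% of all genes). Rpl41 led the first contrast at -0.32 ± 0.10 and Rps12 the second at -0.23 ± 0.07, each with an adjusted p of 1 (limma). Conditioning minus acute had a median of -0.082 with 4 members above 0 (50.1%), and self-administration minus acute -0.077 with 16 (52.0%). Chronic minus acute had a median of 0.040 with 53 above 0 (53.7%), and self-administration minus conditioning 0.008 with 45 (49.8%). These contrasts share groups with each other and with the comparisons above.

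The larger differences among ribosomal protein messages lay between self-administration and the other 3 paradigms, in saline and in cocaine libraries alike. In saline libraries 27 members were higher and 23 lower past the adjusted threshold (limma), where 31.7% and 27.0% of all genes were. In cocaine libraries, which share no library with the first contrast, 20 were higher and 33 lower, where 32.9% and 28.0% of all genes were. With quantile normalization the cocaine contrast had 35 higher and 20 lower. The median over members was 0.035 in saline and -0.013 in cocaine libraries, against 0.020 and 0.019 over all genes. In percent of the 78 members, the saline counts were 34.6% higher and 29.5% lower, near the shares of all genes. The cocaine counts were 25.6% higher and 42.3% lower, fewer and more than those shares, an order that quantile normalization turned around. Members moved in both directions: 19 were higher in both contrasts, 23 lower in both and 0 past the threshold in opposite directions, where 28.0% of all genes were higher and 24.2% lower in both. The 19 are 70.4% of the members higher in saline and 95.0% of those higher in cocaine libraries. The 23 are 100% of those lower in saline and 69.7% of those lower in cocaine libraries. Of all genes, 3691 were higher in both contrasts, out of 4186 higher in saline and 4333 higher in cocaine libraries. Lower in both were 3193, out of 3562 and 3697, so agreement between the contrasts was general and not particular to members.

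**Figure D3:**
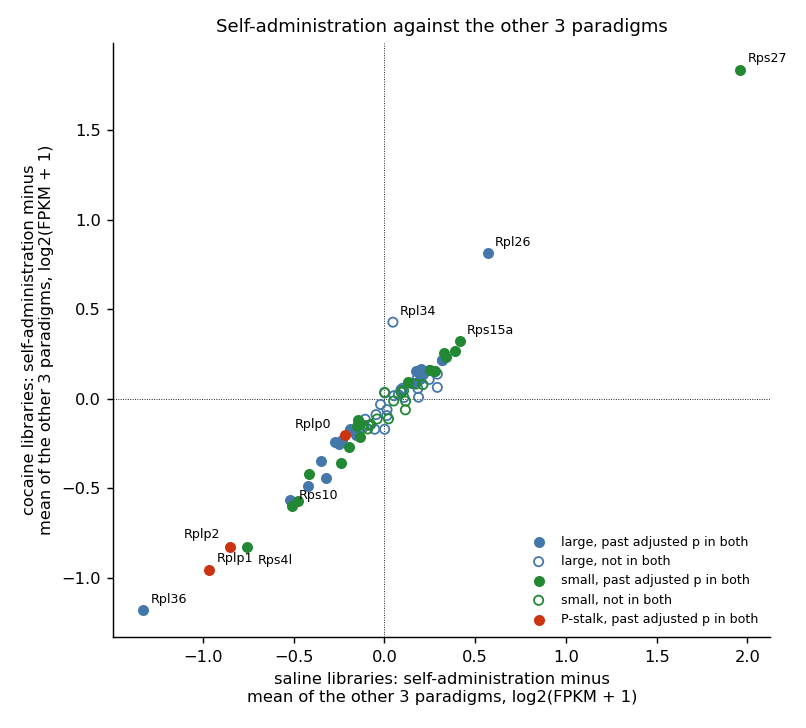
Difference between self-administration and the mean of the other 3 paradigms for each member, in saline libraries (x axis) and in cocaine libraries (y axis), both in log2(FPKM + 1), coloured by subunit and filled where past an adjusted p of 0.05 in both. Rpl36 and the stalk proteins Rplp1 and Rplp2 lie at the lower end and Rps27 and Rpl26 at the upper end.

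The stalk, the arm of the large subunit that recruits elongation factors, was lower as a whole. Rplp1 ran from 435 through a median of 562 to 848 FPKM in saline libraries of self-administration and from 293 through 663 to 783 FPKM in cocaine libraries, whereas the 35 libraries of the other paradigms ran from 920 through 1159 to 1334 FPKM. The groups did not overlap, with Rplp1 at 0.513 of the other saline groups (-0.96 ± 0.11, limma adjusted p = 3.81e-11) and at 0.516 of the other cocaine groups (-0.96 ± 0.09, limma adjusted p = 5.44e-13). Its partner Rplp2 ran from 122 through 256 to 334 FPKM in the 24 self-administration libraries and from 345 through 414 to 461 FPKM in the others, again without overlap. It fell by 0.85 in saline (limma adjusted p = 1.07e-08) and by 0.83 in cocaine libraries (limma adjusted p = 4.36e-10). Rplp0, which anchors both to the large subunit, was lower by a smaller step and its ranges overlapped (-0.22 ± 0.06, limma adjusted p = 0.0034, and -0.20 ± 0.06, limma adjusted p = 0.00146).

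Rpl36, another large subunit protein, showed the largest drop among the members past the threshold. It ran from 31.6 through 262 to 355 FPKM in self-administration and from 373 through 452 to 530 FPKM elsewhere. The groups did not overlap, with -1.33 ± 0.26 in saline (limma adjusted p = 2.24e-05) and -1.18 ± 0.23 in cocaine libraries (limma adjusted p = 1.4e-05). Within self-administration the libraries were far from even: cocaine library 11 was lowest for Rplp1 (293 FPKM), Rplp2 (122 FPKM) and Rpl36 (31.6 FPKM) together, and saline library 2 was the highest saline library for the same genes (848, 334 and 331 FPKM). Rps4l, a copy of Rps4x that GENCODE M21 lists as a transcribed processed pseudogene, was lower too (-0.76 ± 0.13 and -0.83 ± 0.11). Its parent Rps4x was higher in both contrasts. Rps10, a small subunit protein marked by ubiquitin when ribosomes collide, ran from 200.5 through 246 to 328 FPKM in self-administration and from 336 through 369 to 417 FPKM elsewhere, without overlap. In saline libraries, 5 of the 78 members were lower without overlap (Rpl13, Rpl36, Rplp1, Rplp2 and Rps10). Higher without overlap were 3 (Rpl21 and Rps15a among them). These saline counts were near the shares of all genes, 5.00% and 3.53%. In cocaine libraries 5 were lower without overlap (Rpl29, Rpl36, Rplp1, Rplp2 and Rps10) and 0 higher, against 2.41% and 1.59% of all genes. Rps10 and the members of these counts beyond the largest differences were named after their values were seen.

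**Figure D4:**
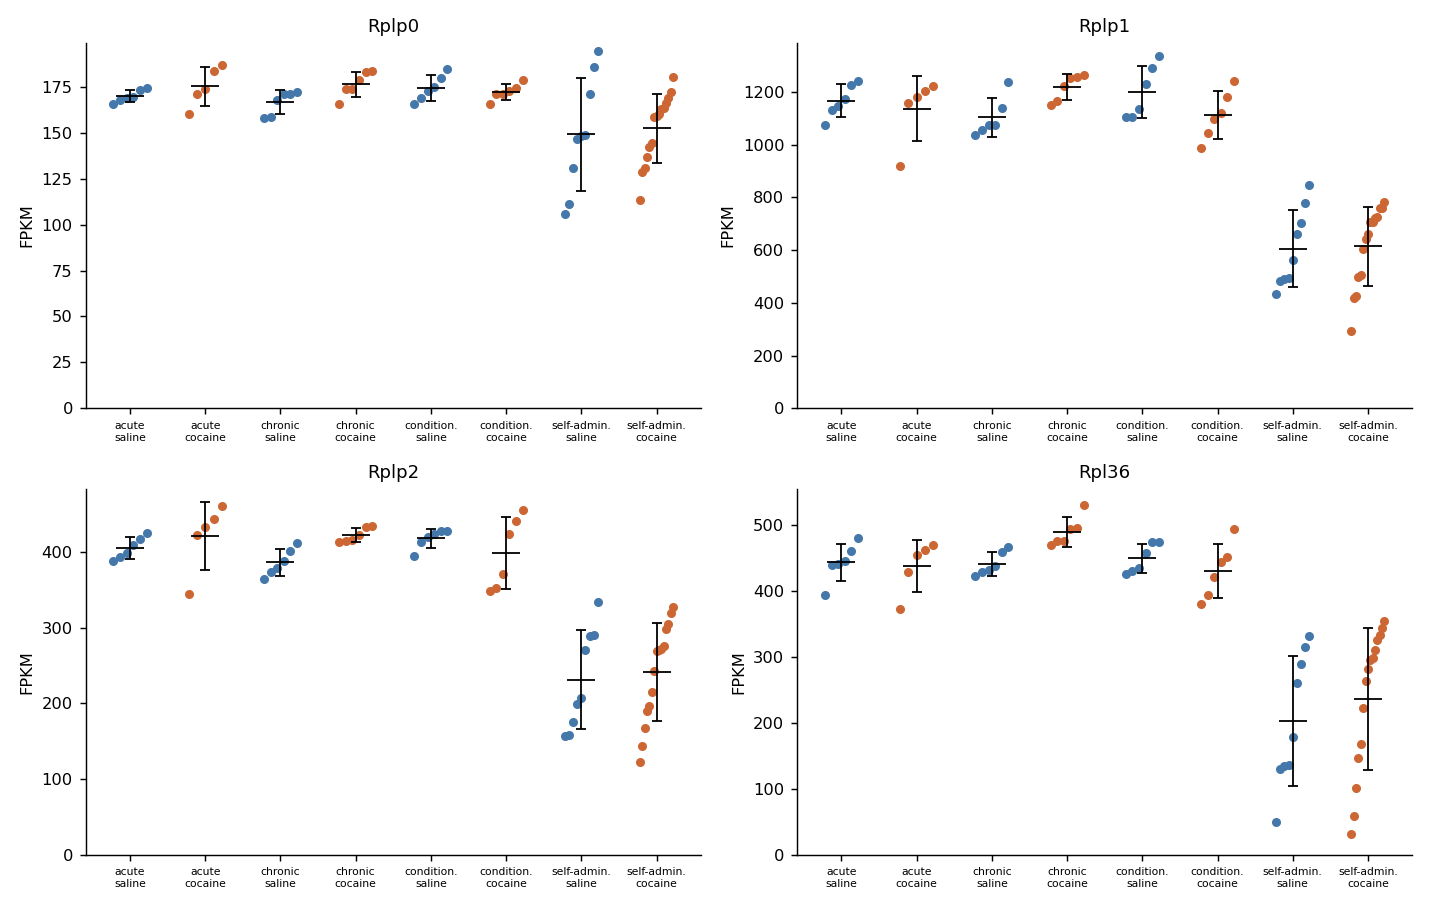
FPKM of the stalk genes Rplp0, Rplp1 and Rplp2 and of Rpl36 in the 59 libraries by group, with mean and SD as bars; all axes start at 0. Rplp1, Rplp2 and Rpl36 are lower in every self-administration library than in any other, while the ranges of Rplp0 overlap.

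Members that were higher in self-administration did so mostly by smaller steps. Rps15a ran from 43.4 through 49.4 to 68.4 FPKM there and from 34.2 through 39.2 to 45.8 FPKM elsewhere. It was higher without overlap in saline libraries (0.42 ± 0.05, limma adjusted p = 1.88e-10) and with overlap in cocaine libraries (0.32 ± 0.04, limma adjusted p = 3.81e-09). Rpl26, a large subunit protein, ran from 7.30 through 20.1 to 33.7 FPKM against 3.80 through 11.9 to 21.7 FPKM (0.57 ± 0.22, limma adjusted p = 0.0223, and 0.81 ± 0.19, limma adjusted p = 0.00023). Without saline library 8 or saline library 2 the saline difference of Rpl26 no longer passed the threshold. Rpl26 had the lowest mean of all members, and a sharing of its reads with copies was not tested. Rpl34 was higher in cocaine libraries only by its own value (0.43 ± 0.10, limma adjusted p = 0.000405, against 0.05 ± 0.12, limma adjusted p = 0.757, in saline), a difference between contrasts that was not tested. Its copy Rpl34-ps1 carried most of the signal, from 295 to 500.5 FPKM against 13.8 to 41.6 FPKM for Rpl34, and the sum of both was lower in cocaine libraries of self-administration (-0.24).

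Position on this scale went with base composition. The 39 members with the higher GC content of their transcripts had median differences of -0.11 in saline and -0.14 in cocaine libraries, and the 39 with the lower GC content 0.12 and 0.050. Spearman's rho between GC content and difference was -0.45 and -0.37 over the 78 members and -0.41 and -0.39 over all 12708 genes with an annotated length. Genes of one library share its depth and composition, so these are descriptions. The 10% of genes with the highest GC content had medians of -0.38 and -0.32. Rplp0, Rplp1 and Rplp2 of the stalk (56.0%, 57.3% and 55.0% GC) and Rpl36 (60.8%, the highest member) lay above the member median of 51.5%. So did Rps19 at 57.5%, which was higher in both contrasts. At the other end, the members with the lowest GC content, Rps20 (41.3%) and Rps27l (42.6%), were lower in both contrasts. Mitochondrial ribosomal proteins were lower in 49 and 51 of 77 cases and higher in 4 and 4, among them Mrpl34 (-1.52 ± 0.10 and -1.37 ± 0.08) and Mrps12 (-1.16 ± 0.08 and -1.09 ± 0.07). Of the 22 elongation and TOP genes, 12 were higher and 2 lower in saline and 11 and 5 in cocaine libraries, with Eif4b, an initiation factor with a TOP message, at 0.38 ± 0.03 and 0.33 ± 0.03. Oligodendrocyte markers moved with this contrast: 5 of 6 were lower in each, and their sum ran from 3278 to 6818 FPKM in cocaine and from 3627 to 8006 FPKM in saline libraries of self-administration. In the other groups it ran from 5518 to 9295 FPKM. Of 4 red blood cell markers, 3 were higher and 1 lower in each contrast, and their sum reached 1107 FPKM in self-administration and 309 FPKM elsewhere. Microglia markers were lower in 4 of 5 cases in saline and 3 of 5 in cocaine libraries, with sums of 48.3 to 101 FPKM in self-administration and 64.3 to 114 FPKM elsewhere. Dopamine neuron markers were lower in 3 and 2 of 10 cases (625.3 to 2386 and 648 to 2627 FPKM). Of 6 hypothalamus and mammillary body markers, 3 were higher and 1 lower in saline and 2 higher in cocaine libraries (17.3 to 230.3 and 17.7 to 85.5 FPKM). Astrocyte markers were higher in 2 of 5 cases and lower in 1 in saline and in 2 in cocaine libraries, and endothelial markers were higher in 1 and 2 of 5 and lower in 2 and 1. None of these markers was at 0 in every library. The part of GC content and of cell makeup in the ribosomal differences was not tested.

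Among the saline groups of the other 3 paradigms, 0 members and 0.0607% of genes differed past the adjusted threshold (moderated F test, limma). At an unadjusted p under 0.05, Rpl31 and Rpl37 differed, where 3.04% of all genes did. With library quality weights, 1 member passed the adjusted threshold.

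Rps27, a zinc-finger protein of the small subunit, was the least even member. It was listed at or under 15 FPKM in 31 libraries and between 23.1 and 1307 FPKM in the other 28, in all groups but conditioning cocaine, a limit set after the values were seen. In conditioning it ran from 5.09 through 5.80 to 14.9 FPKM with cocaine and from 6.38 through 53.9 to 71.1 FPKM with saline. The ranges overlapped: 2 of 6 saline libraries were as low as the cocaine libraries. Its retrogene copy Rps27rt ran from 48.5 to 1420 FPKM and was lowest (48.5, 166 and 176 FPKM) in the libraries where Rps27 was highest (1307, 1161 and 596 FPKM). The sum of both ran from 606 to 1839 FPKM, a narrower range than either, and the values of such alike genes are uncertain where the counting shared out reads between them. With the sum in place of Rps27, the difference in conditioning was -0.07 in place of -1.96. Rps27 itself was higher in self-administration by 1.96 ± 0.87 in saline (limma adjusted p = 0.0482) and 1.84 ± 0.75 in cocaine libraries (limma adjusted p = 0.0319). With the sum these values were 0.38 (adjusted p = 0.0056 in limma) and 0.16 (adjusted p = 0.167 in limma). The call of Rps27 by its own value was lost in 15 of 27 saline and 8 of 32 cocaine fits that left out a library. No library was left out of the fits with the sum.

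**Figure D5:**
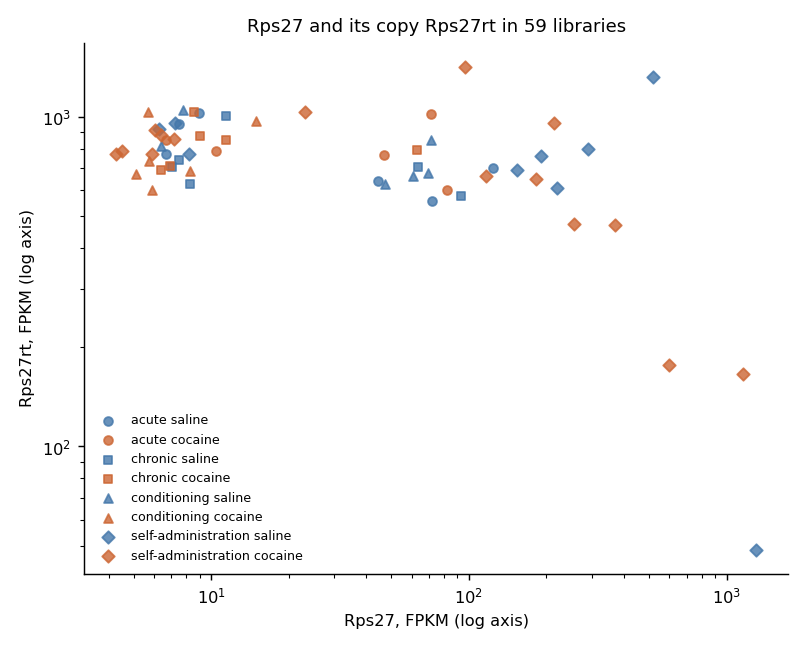
Rps27 against its retrogene copy Rps27rt in 59 libraries, in FPKM on log axes, with colour for the drug and marker shape for the paradigm. In 31 libraries Rps27 is at or under 15 FPKM, and the 3 lowest values of Rps27rt belong to libraries with Rps27 of 596 FPKM or more.

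Spread between libraries of a group differed widely among members. The SD of log2(FPKM + 1) within groups was smallest for the large subunit proteins Rpl6 (0.076), Rpl3 (0.080), Rpl4 (0.089) and Rpl7a (0.089). It was largest for Rps27 (2.13), Rpl36 (0.65), Rpl26 (0.54) and Rps29 (0.35). The median over members was 0.15, against 0.14 over all genes with at least 1 FPKM. After group means were taken out, 79.1% of the 3003 pairs of members were positively correlated over the 35 libraries of the other paradigms (median r = 0.40) and 73.5% over the 24 of self-administration (median r = 0.37). Against the mean of the other members, 67 of the 78 had a positive r over the 35 libraries and all 78 over the 24. Over the 35, Rpl13 (r = -0.45) and Rps26 (r = -0.44) were the most negative. Pairs share libraries and total FPKM, so these values are a description. The share over pairs of all genes was not computed, so they are not shown to be particular to members.

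Related copies were expressed at unequal levels. Median FPKM over all libraries was 363 for the X-linked Rps4x and 30.1 for Rps4l, 42.8 for Rpl22 and 238 for its paralog Rpl22l1, 287 for Rpl36a and 203 for Rpl36al, and 38.3 for Rps27l. Rps6, the small subunit protein that S6 kinase phosphorylates, ran from 258 to 401 FPKM, and Rpsa, which also binds laminin, from 187 to 338 FPKM. Neither passed the adjusted threshold between cocaine and saline in any paradigm (limma).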

How the data were processed

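Total RNA of the ventral tegmental area was sequenced in 59 libraries in 8 groups. Per the submitters' processing notes, the authors used Bowtie, Cuffnorm and mm10 and deposited FPKM values. Not given in the sources used here are tool versions, annotation and filters. Read depth is unknown, so no counting interval is given. The members and lists were chosen with earlier results of these data known. Tests took genes whose mean in the libraries of a fit reached 1 FPKM and ran on log2(FPKM + 1), a scale that understates changes of low genes, with limma 3.58.1 in R 4.3.3 (trended, robust, two-sided). P-values were adjusted by Benjamini-Hochberg over all genes, with 0.05 as threshold. Within each paradigm, cocaine was set against saline. The average effect came from a fit of all 59 libraries with paradigm as an additive term, in which paradigms with more libraries weighed more. Differences between effects, and self-administration against the mean of the other 3 paradigms, came from 1 fit of the 8 groups. The code was tested on simulated data. Named members were, in each comparison, those with the smallest p-values or, where many passed, the largest differences past the threshold. Transcript length, GC content and gene type came from GENCODE M21 (78 members matched), promoters from RefSeq. Alternatives were other pseudocounts, no filter, other scalings, library quality weights, another fit, libraries left out and, added after seeing the data, copies summed. Values of some single genes are not reported here.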

Additional observations from a re-analysis of the deposited data

Results flagged for a closer look

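Within groups of 4 to 10 libraries, 20 of 322 checks found 1 library far from the rest, judged by its gap to the nearest library over the group's range. The checks covered 46 items: named genes, the member level and the member share of FPKM. For independent and unselected values, chance would give about 1 in 20, or 16.1 here. Many of these genes were chosen from the same data and vary together within libraries, so that figure is only a rough guide. Of the 20, 6 came from acute cocaine library 4, where Rpl38 was at 1673 FPKM (nearest other 1132), Rps27a at 659 (450), Rpl23a at 767 (611) and Rpl36a at 371 (274), all high, while Rplp1 at 920 (1159) and Rpsa at 233 (263) were low. Conditioning cocaine library 0 was low for Rpl37 at 119 FPKM (nearest other 153), Rps21 at 622 (810) and Rps16 at 250.4 (299). Acute saline library 0 was low for Rpl12 at 267 FPKM (289) and Rpl3 at 505 (541). Self-administration saline library 0 was high for Rps15a at 68.4 FPKM (54.3) and low for Rpl36 at 49.2 (130). In chronic saline, Rps3 was high at 169 FPKM in library 2 (144), Rpl26 low at 3.80 in library 0 (9.01) and Rps6 low at 258 in library 1 (300). In chronic cocaine, Rps27 was high at 63.0 FPKM in library 2 (11.4) and Rpl35a at 565 in library 5 (471). Rpl34 was high at 25.2 FPKM in acute cocaine library 2 (21.6), and Rpl38 at 1286 in conditioning saline library 2 (1117).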

How the results depend on the processing

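No paired analysis was possible because the columns carry numbers counted from 0 and the replicate numbers of the labels cannot be matched to them. Members past the adjusted threshold (limma) between cocaine and saline stayed at 0 within each paradigm under all alternatives tried. For the average effect, library quality weights gave 1, Rpl37 (0.13, adjusted p = 0.0285). The counts at an unadjusted p under 0.05 were less stable. In the acute paradigm, 6 higher became 2 with quantile normalization, 11 with library weights and 1 with all 8 groups in one fit, and ran from 4 to 11 when a library was left out (10 and 11 without cocaine libraries 3 and 4). In the chronic paradigm, 21 higher became 4, 40 and 8, and ran from 14 to 33 (without saline library 5). In conditioning, 1 lower became 5 with quantile normalization and 0 in one fit or with copies summed, and ran from 1 to 2, with 0 to 1 higher, when a library was left out. Members above 0 there ran from 10 to 34, reaching 15 without saline library 3. In self-administration, 25 members above 0 became 59 with library weights (14 to 40 with a library left out), 0 higher became 9 with weights and 1 in one fit (0 to 1), and 1 lower became 2 with quantile normalization or weights (0 to 2). Over all genes, 0 past the adjusted threshold became 1 in the chronic paradigm (one fit, and 0 to 1 with a library left out), 1 in conditioning (weights) and 1 and 2 in self-administration (weights and one fit). For the average effect, 61 members above 0 became 33 with quantile normalization and 40 without chronic libraries. There, 1 higher at an unadjusted p became 20 with weights, 0 without acute or chronic, 4 without conditioning and 8 without self-administration libraries, and 1 lower became 2 with quantile normalization and 0 with weights or without acute, conditioning or self-administration libraries. All genes past the adjusted threshold for the average, 1 at first, numbered 41 with weights, 0 without acute and 2 without self-administration libraries. Members above 0 in differences of effects numbered, with quantile normalization, 11 from 4 (conditioning minus acute), 27 from 16 (self-administration minus acute), 19 from 3 (conditioning minus chronic) and 25 from 3 (self-administration minus chronic), and with weights to 40 and 17 in the contrasts of self-administration with acute and chronic. For self-administration against the other cocaine groups, quantile normalization turned 20 higher and 33 lower into 35 and 20. With libraries left out, these counts ran from 17 to 22 and 30 to 33, and in saline from 21 to 30 and 21 to 25. Among the other saline groups, weights gave 1 member and 433 genes. Signs turned with copies summed for Rpl34 (chronic -0.08 to 0.092, self-administration 0.29 to -0.018, self-administration against other cocaine groups 0.43 to -0.24) and Rps27 (chronic -0.57 to 0.16), and for Rpl21 in the average effect without self-administration libraries (-0.02 to 0.017). The call of Rps27 in self-administration was also lost with library weights in both contrasts, and in saline libraries with a pseudocount of 0.1, without the filter and with size factors. The cause of these changes was not tested. FPKM carry no depth, so low members such as Rpl26 and Rpl34 have no counting error here.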

Other observations

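Among genes outside the ribosome, those whose libraries varied most like the mean of the 78 members, after group means were taken out over 59 libraries, were Drap1 (r = 0.82), a transcriptional corepressor subunit, and Snrpd2 (r = 0.81), a core protein of the spliceosome. Atp5e, a subunit of ATP synthase, had r = 0.76, as had Ndufa13, a subunit of respiratory complex I, and Nme2, a nucleoside diphosphate kinase. These points share libraries and their total FPKM, so the values are descriptions.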
